A study of Caenorhabditis elegans with 53 samples.

Results

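The zig genes of Caenorhabditis elegans encode small proteins of the immunoglobulin superfamily, named after the German for a pair of immunoglobulin domains. They were taken by name, without use of any measured value: zig-1 to zig-8 and zig-10, 9 genes in all. Each of the 9 was found among the 41897 genes of the raw count table. Of these, 7 were also found among the 7974 genes of the authors' size-adjusted table, which covers neuronal libraries of controls and mutants, and zig-6 and zig-7 were not.

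Most zig proteins are secreted, whereas ZIG-1 and ZIG-10 span the cell membrane. Immunoglobulin-domain proteins act outside the cell, where they bind one another or the extracellular matrix, and several zig genes are needed after the nervous system has formed, to keep axons and cell bodies in place as the animal grows and moves. The lin-4 microRNA, the nuclear protein LIN-14 and the RNA-binding protein LIN-28 belong to the heterochronic pathway, in which lin-4 lowers lin-14 and lin-28 as larvae develop and so times developmental events.

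RNA of nuclei was sequenced in 53 libraries of 12 groups, all from strains that carry otIs790, a transgene that tags the nuclei of neurons (UPN INTACT). Tagged nuclei were pulled down (neuronal IP) from a preparation of all nuclei (input). Control animals without further mutation gave 4 neuronal IP libraries of the first larval stage, L1 (8 ± 1 h after plating), 5 of L2 (21 ± 1 h), 6 of L4 (40 ± 2 h) and 7 of adults (53 ± 2 h), with 4, 3, 4 and 5 input libraries. Neuronal IP was also made from lin-4(e912) null animals at L1 (3 libraries) and as adults (4, at 57 ± 2 h), from adult lin-14(ot1087) gain-of-function animals (5, at 57 ± 2 h) and from adult lin-28(ot1088) gain-of-function animals (3, at 53 ± 2 h). The strain field of the lin-28 libraries names a lin-14 allele, and their titles, which name lin-28, were followed. Each library pooled about 600000 animals at L1 and L2 and about 200000 at L4 and adult. Whether replicates were grown as separate cultures is not stated in the labels, and the p-values here reflect the variation among these libraries only, part of which may be technical.

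Control libraries held 8582120 to 53251753 counts. The 14 pan-neuronal marker genes summed to between 4196 and 19326 CPM (counts relative to the TMM-scaled library size) in neuronal IP and to between 462 and 2542 CPM in input, with none at 0. The share of counts in the authors' set of 7974 neuronal genes was lower at later stages in neuronal IP, with medians of 49.8% (L1), 44.3% (L2), 31.6% (L4) and 27.4% (adult), and in input it went from 18.0% at L1 to 8.52% in adults. Summed markers of germline and of intestine, a list that includes yolk protein genes, went the other way. In neuronal IP their medians were 65.7 and 1734 CPM at L1, and 4295 and 49764 CPM in adults. Medians also rose for hypodermis (766 to 2717), sperm (18.5 to 123) and body wall muscle (8673 to 11201). They fell for pharyngeal muscle (3720 to 453) and glia (187 to 109). In the mutants, lin-4 was listed at 0 in all 7 lin-4 null libraries. The lin-14 RNA had a normalized value of 2235 ± 241 (SD, n = 7) in adult controls, 2730 ± 311 (n = 4) in adult lin-4 null and 2096 ± 463 (n = 5) in adult lin-14 gain-of-function libraries, and the alleles were not checked further here.

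The members lie on several chromosomes. In the coordinates of the deposited gene table, whose build is not given in the sources used here, zig-4 (WBGene00006981) lies on the plus strand of chromosome X from 7925421 to 7926305 and zig-3 (WBGene00006980) follows on that strand from 7930749 to 7931605. They are neighbours 4443 bases apart, with 0 genes between them. The gene zig-2 (WBGene00006979) lies on the minus strand of X from 12340501 to 12341315, and zig-6 is also on X. The gene zig-8 spans III from 13119758 to 13133710, zig-5 is also on chromosome III, zig-10 is on II, and zig-1 and zig-7 are on I. Summed exon lengths in that table ran from 717 bases for zig-2 to 986 for zig-10. They are multiples of 3 in 8 of the 9 members, the exception being zig-10, whose 7 exon entries hold 5 distinct exons, so that its length is not that of 1 reading frame. No member shares exon bases with another gene.

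Neuronal IP against input asked which members the pull-down of neuronal nuclei enriches. Averaged over the 4 stages, 7 of the 9 members were higher in neuronal IP and the other two, zig-6 and zig-7, were lower. Of 21040 genes tested, 41% passed as higher and 23.4% as lower. The median log2 fold change was 2.38 over the members and 0.25 over all genes tested. An adjusted p (Benjamini-Hochberg over all genes tested) under 0.05 in edgeR's quasi-likelihood test is the threshold throughout for control libraries, and limma's for the mutants.

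Among the secreted members, zig-8, whose protein binds the neuronal receptor RIG-5, was 3.39 higher on the log2 scale in neuronal IP over the stages (SE 0.19, adjusted p = 2.07e-17). The gene zig-5, which acts together with zig-8 in keeping neurons in place, was 3.37 higher (SE 0.19, adjusted p = 3.59e-17). In adults, zig-8 stood at 23.7 to 48.8 CPM in the 7 neuronal IP libraries (median 30.2), and at 1.90, 3.11, 3.22, 1.60 and 1.77 CPM in the 5 input libraries. The ranges were far apart, and at each of the 4 stages every neuronal IP library lay above every input library for zig-4, zig-5, zig-8 and zig-10. The gene zig-4, which holds axons in place in the ventral nerve cord, was 3.06 higher (SE 0.19, adjusted p = 2.18e-16). The membrane-protein genes zig-10, known for a role in keeping synapse density, and zig-1 were 2.74 (SE 0.23, adjusted p = 6.03e-13) and 2.00 (SE 0.18, adjusted p = 9.56e-12) higher. The secreted-protein genes zig-2 and zig-3 were 2.38 (SE 0.24, adjusted p = 1.02e-10) and 1.51 higher (SE 0.22, adjusted p = 1.75e-07).

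Averaged over the stages, the remaining members, zig-6 and zig-7, were more abundant in input. Adult zig-7 ran from 8.33 to 17.7 CPM in neuronal IP (median 12.9) and stood at 18.6, 15.2, 7.55, 37.8 and 23.5 CPM in input, and the ranges overlapped. Over the stages it was lower in neuronal IP by a log2 fold change of -0.70 (SE 0.19, adjusted p = 0.00123), and zig-6 by -0.88 (SE 0.31, adjusted p = 0.0143). At L2 both were lower, zig-7 by -1.31 (SE 0.40, adjusted p = 0.00872) and zig-6 by -1.60 (SE 0.66, adjusted p = 0.0472). The L2 call of zig-6 was lost without input library 2 (-1.58, adjusted p = 0.101), without neuronal IP library 2 (adjusted p = 0.0576) or without library 5 (adjusted p = 0.0537). At L4 neither was called. Mean zig-6 at that stage was 3.13 CPM in neuronal IP and 3.14 in input, and mean zig-7 was 10.1 and 11.6. At L1 and in adults neither passed the test. Both did in the fit that pairs neuronal IP libraries with the input of the same replicate number. There zig-6 had -1.30 (adjusted p = 0.0418) and -1.07 (adjusted p = 0.045), and zig-7 had -0.67 (adjusted p = 0.0172) and -0.60 (adjusted p = 0.0189). Adult neuronal IP libraries 6 and 7 have no such input and do not enter these estimates. Both are outside the authors' neuronal set.

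By stage, 7 members were higher in neuronal IP and none lower at L1, where 34% of all genes tested were higher. At L2, 7 were higher and 2 lower, beside 31.1% and 11.2% of all genes. At L4, 6 were higher and none lower, beside 28.9% of genes higher, and in adults 7 were higher and none lower, beside 25.9%. The median log2 fold change of the members went from 1.58 in L1 (0.39 over all genes tested) through 2.19 in L2 (0.46) and 2.92 in L4 (0.17) to 3.05 in adults (0.06). The call of zig-2 at L1 was lost without neuronal IP library 2 (1.07, adjusted p = 0.0963) and at L2 without input library 2 (1.25, adjusted p = 0.0673). That of zig-1 at L2 was lost without either of input libraries 1 and 2 or neuronal IP libraries 1 and 4 (0.65 to 0.81, adjusted p 0.0728 to 0.196). Without the filter on low counts the L1 calls of zig-2 (0.95, adjusted p = 0.141) and zig-3 (1.00, adjusted p = 0.0773) and the L2 call of zig-1 (0.69, adjusted p = 0.123) were also lost.

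**Figure D1:**
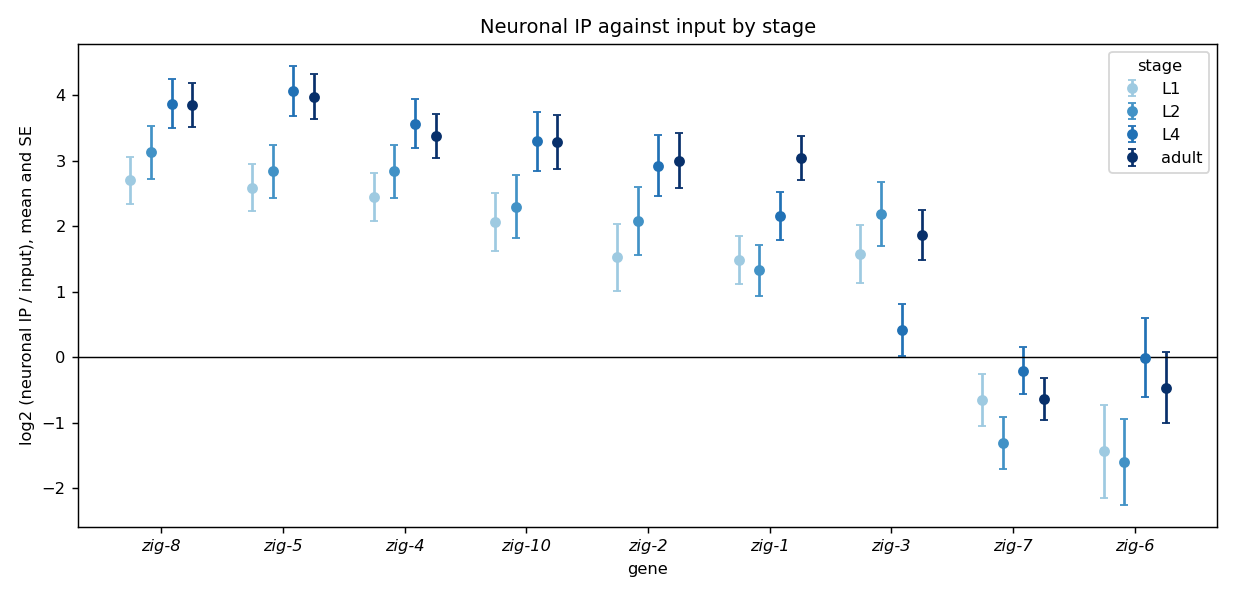
Log2 fold change of neuronal IP over input (y axis) for each zig gene (x axis) at 4 stages, with bars of 1 SE from the edgeR fit over 38 control libraries. The values of zig-8 ran from 2.70 at L1 to 3.87 at L4, and zig-3 stood at 0.42 at L4. Averaged over the stages, zig-6 and zig-7 lay below 0, and at L4 neither was called.

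Whether this contrast grew from L1 to adult was tested as the difference of the IP-over-input log2 ratios. It grew for zig-1, by 1.56 (SE 0.48, adjusted p = 0.0243), and for zig-5, by 1.39 (SE 0.46, adjusted p = 0.0339), 2 of 9 members beside 8.32% of all genes tested. In input, zig-1 stood at 25.8, 15.7, 21.4 and 25.4 CPM at L1 and at 2.89, 2.78, 2.35, 3.56 and 3.60 in adults. In neuronal IP it stood at 72.7, 48.2, 56.6 and 69.6 CPM at L1 and between 16.4 and 37.0 in adults (median 22.2). Both kinds of library were lower in adults with no overlap, and the input changed more. With neuronal IP libraries paired to inputs of the same number, 5 members passed beside 6327 of 21040 genes, zig-4 (1.14, adjusted p = 0.0132), zig-8 (1.35, adjusted p = 0.00195) and zig-10 (1.24, adjusted p = 0.0193) besides. Adult neuronal IP libraries 6 and 7 have no such input and do not enter that estimate. The call of zig-1 was lost without L1 neuronal IP library 2 (1.46, adjusted p = 0.0534), and that of zig-5 without any 1 of 9 libraries (adjusted p 0.0512 to 0.0663), namely L1 input 1 and 4, adult input 1, 2 and 3, L1 neuronal IP 1 and 3, and adult neuronal IP 1 and 4.

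Per kilobase of the summed exon length, which makes genes comparable apart from the doubt on that of zig-10, the order of mean levels in L1 neuronal IP was zig-8 (119 ± 36.5 CPM per kilobase, SD, n = 4), zig-5 (102 ± 17.7), zig-1 (77.4 ± 14.3), zig-4 (50.1 ± 19.4), zig-10 (32.0 ± 3.69), zig-7 (11.7 ± 4.43), zig-3 (6.46 ± 3.34), zig-2 (1.31 ± 0.89) and zig-6 (0.70 ± 0.33). The levels of zig-8 and zig-5 lay within their spread, as did zig-2 and zig-6. In adults the order was zig-5 (48.8 ± 17.8, n = 7), zig-8 (41.9 ± 11.9), zig-1 (31.4 ± 9.76), zig-4 (29.2 ± 11.3), zig-7 (18.3 ± 5.13), zig-10 (16.3 ± 5.43), zig-2 (15.9 ± 6.26), zig-3 (6.37 ± 2.28) and zig-6 (2.15 ± 1.56). There zig-2 had moved up to the level of zig-10, and each gene from zig-5 to zig-4 lay within the spread of its neighbour.

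The gene zig-2 rose in neuronal IP from stage to stage up to L4. It stood at 0.422, 1.72, 1.2 and 0.408 CPM at L1, from counts of 4, 25, 21 and 7. At L2 it stood at 3.76, 3.05, 2.52, 6.67 and 6.0 CPM. At L4 its lowest, median and highest values were 7.93, 16.2 and 24.8 CPM, and in adults 6.24, 10.7 and 18.3. Every L2 library lay above every L1 library and every L4 library above every L2 library, whereas L4 and adult overlapped. The log2 fold change was 2.20 from L1 to L2 (SE 0.47, adjusted p = 0.00599) and 1.98 from L2 to L4 (SE 0.41, adjusted p = 0.000281). From L4 to adult it was -0.61 (SE 0.35, adjusted p = 0.19), and from L1 to adult 3.58 (SE 0.49, adjusted p = 2.21e-07), with a ratio of mean levels of 12.2. The rises to L2, to L4 and from L1 to adult passed in every alternative fit, among them each with 1 library left out.

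Of the members, zig-2 alone passed the test from L1 to L2, 1 of 9 beside 2.52% of all genes tested that were higher. From L2 to L4, zig-2 was higher and zig-1, zig-5 and zig-8 lower, beside 16.3% of genes higher and 9.11% lower. In input, zig-2 stood at 0.243, 0.612, 0.229 and 0.180 CPM at L1 and at 0.806, 1.17, 1.23, 2.26 and 1.66 in adults, all above L1, and rose by a log2 fold change of 2.10 (SE 0.49, adjusted p = 0.000401). The rise was 1.48 larger in neuronal IP than in input (SE 0.65, adjusted p = 0.108), which did not pass.

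**Figure D2:**
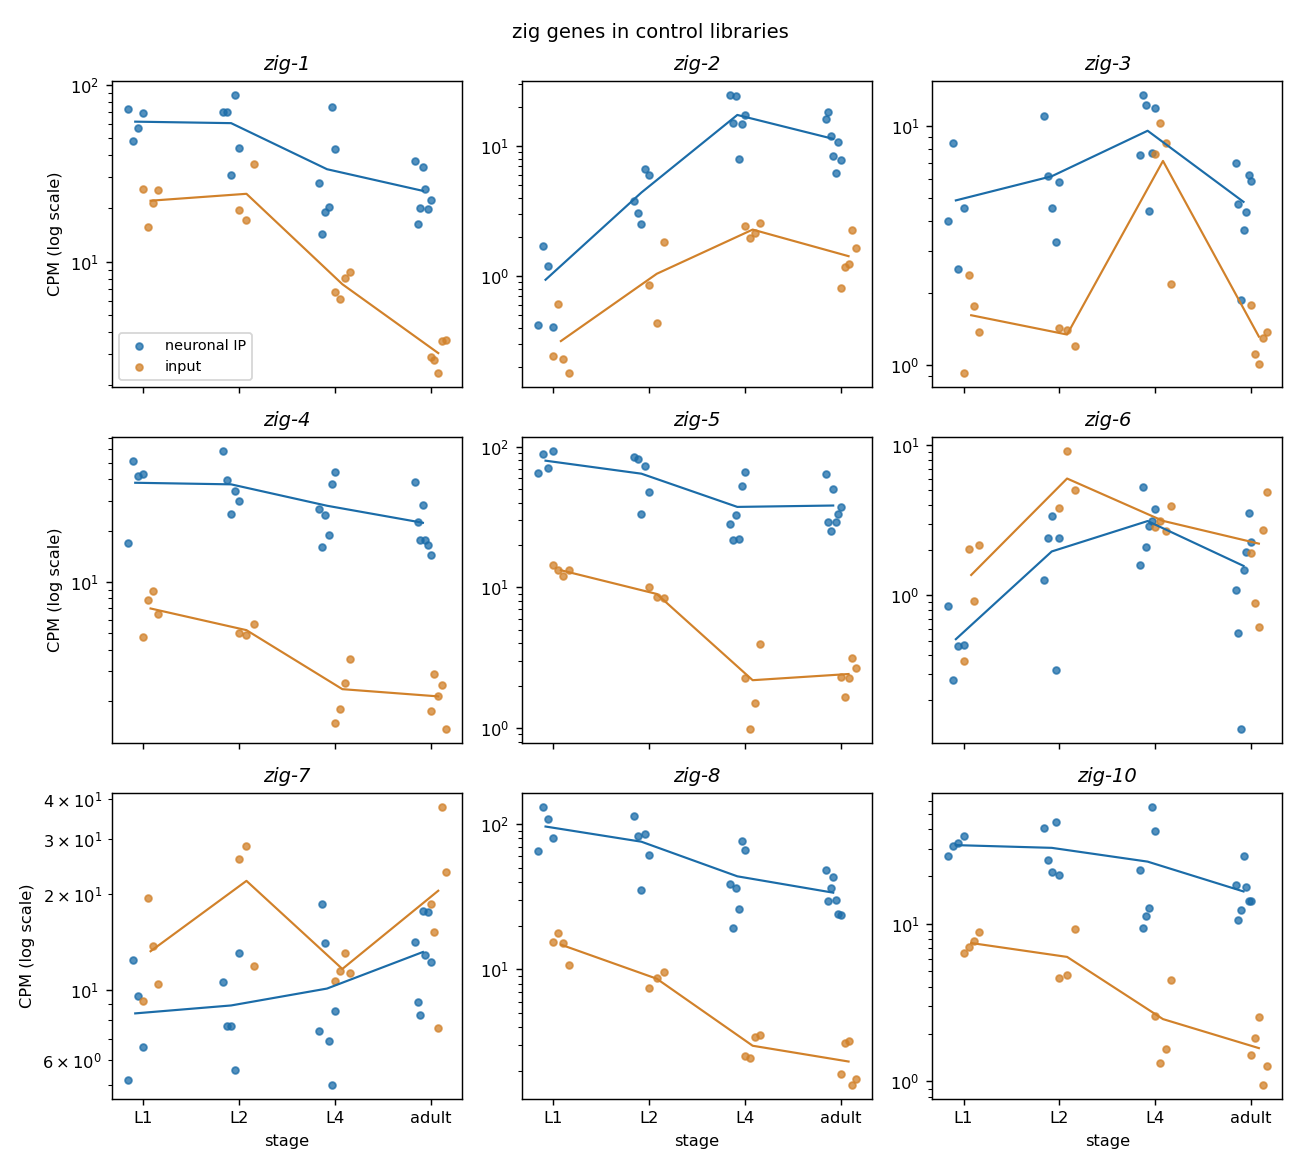
CPM on a log axis (y) by stage (x) for each of the 9 zig genes, with 1 point per control library and lines through the group means, neuronal IP in blue and input in orange. In neuronal IP zig-2 climbs from a mean of 0.94 at L1 to 17.4 at L4, and in input zig-3 stands at 7.13 at L4 and at 1.35 and 1.32 at L2 and adult.

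The gene zig-3, which like zig-4 holds axons of the ventral nerve cord in place, had its highest mean levels at L4 in both kinds of library. In input it stood at 1.43, 1.40 and 1.21 CPM at L2, at 7.64, 10.3, 8.44 and 2.18 at L4, and at 1.80, 1.11, 1.01, 1.31 and 1.37 in adults. Every L4 library lay above all L2 and adult libraries, with library 4 nearest to them. The log2 fold change was 2.40 from L2 to L4 (SE 0.51, adjusted p = 0.000316), where 6 of 9 members passed and 23.8% of all genes tested were higher and 20.9% lower. From L4 to adult it was -2.42 (SE 0.43, adjusted p = 2.3e-05), where 2 of 9 members were lower beside 18.2% of genes. In neuronal IP zig-3 ran from 4.39 to 13.4 CPM at L4 (median 9.77) and from 1.87 to 6.96 in adults (median 4.70), and the ranges overlapped. It fell by 0.98 on the log2 scale between them (SE 0.34, adjusted p = 0.0233), the only member to pass there, beside 14.2% of genes lower. That call was lost without neuronal IP L4 library 3 (adjusted p = 0.0525) or adult library 3 (adjusted p = 0.0554).

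At L4, zig-3 was the one case among the 7 enriched members without a called contrast: neuronal IP over input was 0.42 on the log2 scale (SE 0.40, adjusted p = 0.43). The change of this contrast was -1.77 from L2 to L4 (SE 0.61, adjusted p = 0.0782) and 1.44 from L4 to adult (SE 0.54, adjusted p = 0.194). Neither passed, nor did any other member, beside 5.1% and 1.13% of genes called, and for the first step 2 members and for the second 1 member had an unadjusted p under 0.05 in edgeR. With neuronal IP libraries paired to inputs of the same number, zig-1 passed from L4 to adult (1.67, SE 0.26, adjusted p = 0.000671), where 966 of 21040 genes did. That estimate leaves out L4 neuronal IP libraries 5 and 6 and adult 6 and 7, which have no such input. Unpaired, the zig-1 value was 1.30 (adjusted p = 0.0669) with L4 neuronal IP libraries 1 to 3 alone and 0.37 (adjusted p = 0.65) with 4 to 6. Without L4 input library 4, 2 members passed in the first step and 1 in the second. Summed sperm markers, 13 genes, also peaked in L4 input, at 443 to 602 CPM beside 4.23 to 7.58 at L2 and 18.1 to 397 in adults, and their part in the zig-3 values was not tested.

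The genes zig-1, zig-4, zig-5, zig-8 and zig-10 were lower in adult than in L1 neuronal IP on the scale of whole libraries. With zig-2 and zig-6 higher, 7 of 9 members passed, beside 29.6% of all genes tested lower and 23.8% higher, and the median log2 fold change was -0.78 over members and -0.21 over all genes. For zig-8 the L1 libraries stood at 65.3, 131, 108 and 80.4 CPM and the adult libraries between 23.7 and 48.8 (median 30.2), with a log2 fold change of -1.51 (SE 0.29, adjusted p = 5.93e-05). For zig-5 they stood at 65.1, 89.5, 70.8 and 93.5 and between 25.04 and 64.01 (median 33.3), with -1.06 (SE 0.30, adjusted p = 0.00334). For zig-5, zig-8, zig-1 and zig-10 every adult library lay below every L1 library, and for zig-4 the ranges overlapped.

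The change of zig-1 was -1.30 (SE 0.31, adjusted p = 0.000798) and that of zig-10 -0.98 (SE 0.37, adjusted p = 0.0243). For zig-4, L1 libraries stood at 16.9, 51.0, 41.7 and 43.2 CPM and adults between 14.4 and 38.7 (median 17.7), with -0.78 (SE 0.30, adjusted p = 0.0268). The 5 genes together did not all keep a call when 1 library was left out: zig-4 lost it without L1 library 2, 3 or 4 (-0.61 to -0.74, adjusted p 0.0567 to 0.12) and zig-10 without L1 library 4 (-0.86, adjusted p = 0.063). The gene zig-6 rose from 0.844, 0.275, 0.458 and 0.467 CPM to between 0.129 and 3.54 (median 1.47), by 1.66 on the log2 scale (SE 0.66, adjusted p = 0.0343). Its ranges overlapped, and the call was lost without L1 library 2, 3 or 4 or adult library 6 or 7 (1.37 to 1.73, adjusted p 0.0539 to 0.102). Adult libraries 1 to 3 stood at 0.129 to 1.08 CPM (mean 0.592) and libraries 4 to 7 at 1.47 to 3.54 (mean 2.31). The L1 values of zig-6 came from 4 or 8 counts.

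These libraries also differ in the share of counts that fell in neuronal genes, as given above, and in bulk nuclei fewer nuclei of a type and less RNA per nucleus cannot be told apart. When libraries were scaled on the 8632 genes that were higher in neuronal IP than in input, the median change of all genes from L1 to adult moved from -0.21 to 0.82, and the members moved with it. On that scale zig-10 was at 0.03 (adjusted p = 0.934), zig-4 at 0.19 (adjusted p = 0.513), zig-5 at -0.08 (adjusted p = 0.829) and zig-1 at -0.34 (adjusted p = 0.277), none of them called. The gene zig-8 remained lower, at -0.53 (SE 0.18, adjusted p = 0.0126), and zig-2 higher, at 4.58 (SE 0.52, adjusted p = 6.4e-09). The genes zig-3 (1.07, adjusted p = 0.0412), zig-6 (2.79, adjusted p = 0.00444) and zig-7 (1.73, adjusted p = 0.00322) were called higher. These are 5 of 9 members called, beside 11235 of 21040 genes on that scale. The size-adjusted table is scaled on the authors' neuronal set, and its values were further divided by a median-ratio factor per library. These factors were 1.15 to 1.27 in L1 controls and 0.787 to 0.941 in adult controls. The division by itself raises each change from L1 to adult, and this step was not tested without it. On the divided values limma found zig-2 (4.72) and zig-3 (1.21, adjusted p = 0.0096) higher. It called none of the other 5 members, with zig-8 at -0.27 (adjusted p = 0.186). There 2562 of 6148 genes were called.

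**Figure D3:**
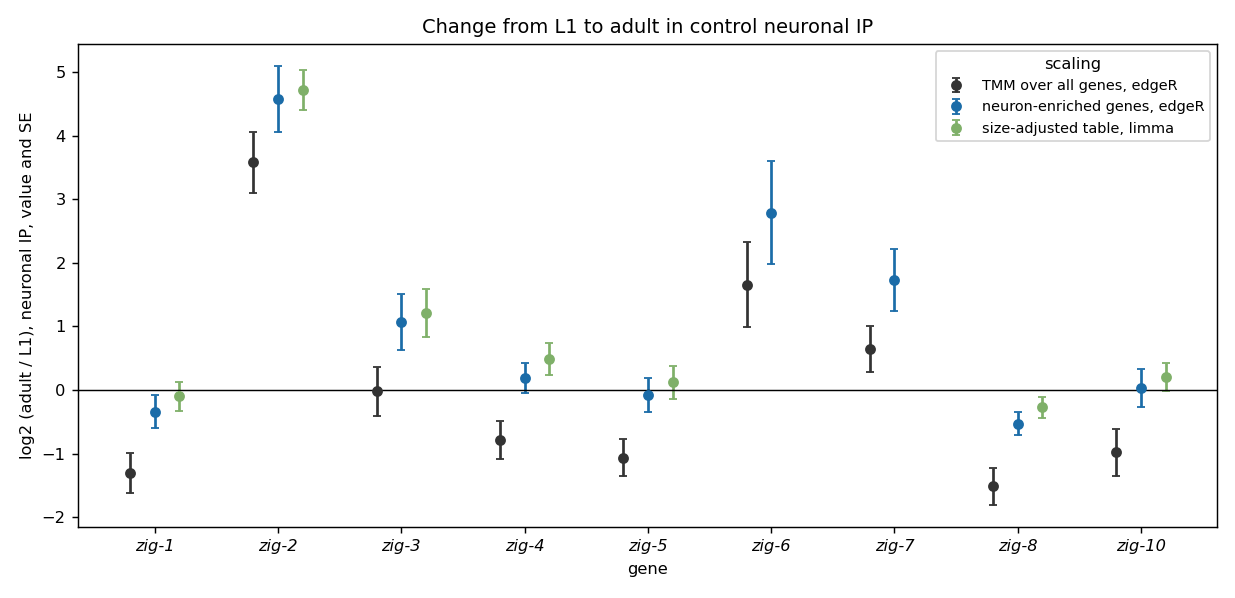
Log2 fold change from L1 to adult in control neuronal IP (y axis, with bars of 1 SE) for each zig gene (x axis) under 3 scalings. The size-adjusted values were further divided by a median-ratio factor per library. The gene zig-2 lies above 3 in all scalings, and zig-4 and zig-10 lie below 0 with whole-library scaling and above 0 with the others. The genes zig-6 and zig-7 are not in the size-adjusted table.

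Part of this fall was called between neighbouring stages. From L2 to L4, zig-1 was lower by a log2 fold change of -0.86 (SE 0.31, adjusted p = 0.0344), zig-5 by -0.78 (SE 0.29, adjusted p = 0.0446) and zig-8 by -0.79 (SE 0.29, adjusted p = 0.0389). The L4 libraries were spread widely: zig-1 stood at 27.9, 14.2, 19.1, 20.5, 74.9 and 43.0 CPM in libraries 1 to 6, and zig-10 at 21.8, 9.35, 11.2, 12.6, 55.1 and 38.7. Libraries 5 and 6 were the highest for zig-1, zig-4, zig-5, zig-8 and zig-10, and they also had the highest neuronal share of counts, 45.5% and 43.2%, beside 22.5% to 33.3% in the other 4. None of the 3 calls held when libraries were scaled on neuron-enriched genes (adjusted p 0.0708 to 0.288), nor with the 2 groups fitted alone (adjusted p 0.0681 to 0.0901). Leaving out 1 library ended the call of zig-1 in 3 cases (L2 library 2 or 4, L4 library 3), of zig-8 in 4 (L2 library 1 or 2, L4 library 2 or 3) and of zig-5 in 7 (L2 library 1, 2 or 4, L4 library 1, 2, 3 or 4), with adjusted p 0.0565 to 0.119.

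In input, all 5 of these genes fell from L1 to adult on the scale of whole libraries. The gene zig-1 changed by -2.86 (SE 0.36, adjusted p = 2.7e-08), zig-8 by -2.67 (SE 0.34, adjusted p = 3.06e-08), zig-5 by -2.45 (SE 0.34, adjusted p = 1.86e-07), zig-10 by -2.20 (SE 0.42, adjusted p = 3.17e-05) and zig-4 by -1.72 (SE 0.34, adjusted p = 4.83e-05). With zig-2 higher, 6 of 9 members passed, beside 27.2% of genes higher and 31.9% lower. The median was -1.72 over members and -0.31 over all genes. Over that step the neuronal share of counts in input also fell, from a median of 18.0% to 8.52%. With scaling on neuron-enriched genes the median change of all genes from L1 to adult in input was 0.76. All 5 also passed as lower in input from L2 to L4, with zig-5 going from 10.0, 8.57 and 8.35 CPM to 2.28, 0.984, 1.5 and 3.98, a log2 fold change of -2.01 (SE 0.39, adjusted p = 0.00011). All L4 libraries lay below all L2 libraries for each of these 5 genes. The call of zig-10 was lost without L2 input library 4 (-1.13, adjusted p = 0.0618). It was also lost with scaling on neuron-enriched genes (-0.86, adjusted p = 0.0628), where zig-1, zig-4, zig-5 and zig-8 still passed (adjusted p 0.000197 to 0.0447). From L1 to L2 in input no member passed in edgeR, with 3 at an unadjusted p under 0.05 and 2 called by DESeq2, beside 1.34% of genes called.

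The mutants were compared with controls in neuronal IP by size-adjusted values divided by a factor per library, called normalized values here, for the 7 members in that table. In adult lin-14 gain-of-function animals zig-2 was lower and zig-3 higher, 1 of 7 each way beside 10.5% and 8.8% of 6148 genes tested. The values of zig-2 were 85.2, 70.4, 57.5, 69.9 and 164 in the mutant, and 117 to 263 (median 170) in the 7 adult controls. In the mutant 4 of 5 libraries lay below every control and library 5 lay among the controls. The log2 fold change was -1.02 (SE 0.29, adjusted p = 0.0159), with a ratio of mean values of 0.511. It passed without any 1 library, and missed with adult control libraries 4 to 7 alone (-0.87, adjusted p = 0.0727), on the size-adjusted values as deposited (-0.67, adjusted p = 0.106) and on the deposited normalized values (-0.63, adjusted p = 0.196). On both deposited scales the median change of all genes was 0.39, beside 0.05 here, and the deposited normalized values are not divided by 1 factor per library: within each library the divisor differed between genes, from 0.64 to 1.33 over genes above 500.

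The values of zig-3 were 229, 69.1, 80.9, 178 and 232 in lin-14 gain-of-function animals and 26.6 to 128 (median 70.3) in adult controls. Libraries 1, 4 and 5 lay above every control and the other two among them. The log2 fold change was 0.96 (SE 0.35, adjusted p = 0.048), and the call was lost without any of adult control libraries 1 to 5 or mutant libraries 1, 4 and 5 (0.73 to 1.00, adjusted p 0.0572 to 0.142). The other 5 members did not pass, from -0.31 for zig-8 (adjusted p = 0.171) to 0.43 for zig-4 (adjusted p = 0.189).

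In adult lin-4 null animals 0 of 7 members passed in limma, with 3 at an unadjusted p under 0.05, beside 7.86% of genes called. The values of zig-2 were 102, 106, 99.6 and 123, in which 3 of 4 lay below every adult control, with a log2 fold change of -0.66 (SE 0.31, adjusted p = 0.198). Those of zig-4 were 351, 496, 620 and 631, beside 252 to 425 (median 331) in controls, with 0.61 (SE 0.25, adjusted p = 0.119), and 3 of 4 lay above every control. For zig-5 they were between 514 and 1193, with 0.56 (SE 0.26, adjusted p = 0.188). The adult lin-4 null and lin-14 comparisons share their control libraries, and both mutants were collected later than the controls, a difference in time that cannot be told apart from genotype here.

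In adult lin-28 gain-of-function animals 0 of 7 members passed in limma, 0 at an unadjusted p under 0.05, beside 0.0163% of genes called, which is 1 of 6148. With adult control libraries 1 to 3 alone 615 of 6108 genes were called and still none of the 7 members. There zig-2 stood at 212, 222 and 153, within the range of the controls, with a log2 fold change of 0.19 (SE 0.35, adjusted p = 0.86). At L1, lin-4 null against control also had 0 of 7 members in limma, with 1 at an unadjusted p under 0.05, beside 0.0651% of genes called.

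From L1 to adult within lin-4 null animals 3 of 7 members rose and none fell, beside 12.7% of genes higher. The gene zig-2 stood at 2.57, 5.02 and 0.925 at L1 and at the adult values above, with a log2 fold change of 4.97 (SE 0.38, adjusted p = 1.04e-10). The gene zig-4 stood at 121, 201 and 181 at L1, below every adult library, and rose by 1.63 (SE 0.30, adjusted p = 0.000219). The gene zig-3 stood at 24.9, 43.5 and 22.2 at L1 and at 59.0, 93.8, 92.0 and 127 in adults, and rose by 1.60 (SE 0.45, adjusted p = 0.0107), a call lost without L1 library 3 (adjusted p = 0.056). The same step in controls gave 4.72 for zig-2, 0.49 for zig-4 and 1.21 for zig-3 on this scale. The difference between lin-4 null and control did not pass for any member in limma, with 1 at an unadjusted p under 0.05, beside 0.878% of genes called. It was 0.25 for zig-2 (SE 0.50, adjusted p = 0.868), 1.14 for zig-4 (SE 0.38, adjusted p = 0.163) and 0.39 for zig-3 (SE 0.58, adjusted p = 0.806).

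**Figure D4:**
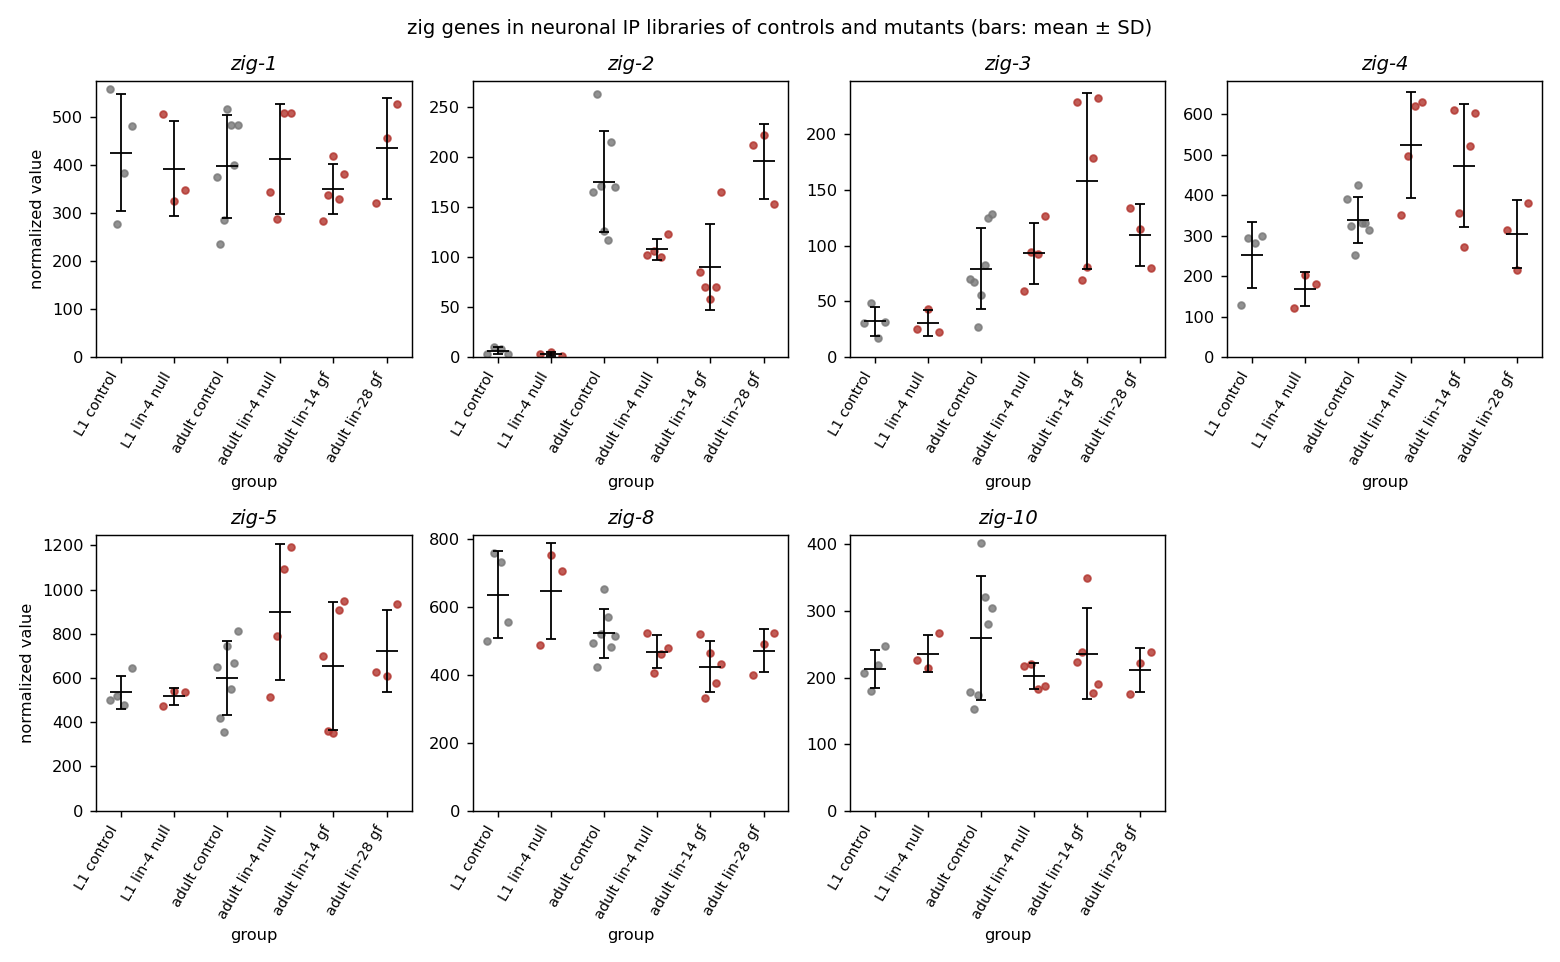
Normalized value (y axis) of the 7 zig genes in the authors' neuronal table, with 1 point per neuronal IP library in 6 groups (x axis) and bars of mean ± SD, controls in grey and mutants in red. Mean zig-2 is 6.10 in L1 controls, 175 in adult controls, 107 in adult lin-4 null, 89.5 in adult lin-14 and 196 in adult lin-28 gain-of-function libraries.

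Likeness was described by Pearson's r of log2 CPM over the 22 control neuronal IP libraries. These differ in stage and in neuronal share of counts, and r takes no account of either. Among the members, zig-1 was most like zig-10 (r = 0.917), zig-5 and zig-8 were most like each other (0.902), and zig-4 was most like zig-8 (0.867). The gene zig-2 had no close member: its highest r was 0.362, with zig-6, and its lowest was -0.59, with zig-1. Among 21039 other genes the 2 most like zig-2 were lep-5 (0.889) and sfxn-1.1 (0.885), and those most like zig-4 were lgc-37 (0.936) and acr-24 (0.933), genes named as channel and receptor subunits. For zig-1 they were M176.5 (0.979) and lron-14 (0.974), for zig-8 E02A10.3 (0.973) and C09E7.10 (0.972), for zig-5 pdl-1 (0.956) and H35B03.1 (0.954), and for zig-10 linc-22 (0.957) and tsp-7 (0.955). For zig-3 they were C43F9.11 (0.805) and dnj-24 (0.795), for zig-6 prx-5 (0.916) and ZK1320.2 (0.899), and for zig-7 djr-1.1 (0.784) and F46B6.12 (0.783).

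Of 39 other immunoglobulin-domain genes listed beside the members, 37 were tested in control libraries. Over the stages 28 were higher in neuronal IP and 5 lower, beside 41% and 23.4% of all genes tested. Their median log2 fold change was 1.40, below the 2.38 of the members. The 3 with the largest change were madd-4 (3.59, SE 0.18, adjusted p = 3.3e-18), which encodes a secreted organizer of neuromuscular junctions, oig-5 (3.50, SE 0.22, adjusted p = 2.56e-16) and rig-5 (3.46, SE 0.25, adjusted p = 1.29e-14). The gene rig-5, the partner of zig-8, moved from 38.6 ± 12.2 CPM (SD, n = 4) at L1 to 13.4 ± 3.95 (n = 7) in adult neuronal IP, a log2 fold change of -1.53 (SE 0.38, adjusted p = 0.00111). With scaling on neuron-enriched genes it was at -0.60 (adjusted p = 0.104). On the whole-library scale 20 of the 37 were lower from L1 to adult and 1 higher, beside 29.6% and 23.8% of all genes tested. Largest were the changes of lad-2 (-2.90, SE 0.29, adjusted p = 5.55e-10), igdb-3 (-2.61, SE 0.69, adjusted p = 0.00208) and ncam-1 (-1.56, SE 0.35, adjusted p = 0.000389). With scaling on neuron-enriched genes 3 were lower and 12 higher, 15 of 37 beside 11235 of 21040 genes called. In adult lin-14 gain-of-function libraries 4 of the 27 tested were lower, beside 10.5% of genes, and none higher, beside 8.8%. The lower ones were led by unc-40 (-0.70, adjusted p = 0.00945), rig-6 (-0.70, adjusted p = 0.000833) and cam-1 (-0.55, adjusted p = 0.023).

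Of 6 genes listed for maintaining the nervous system, rig-5 among them, 3 passed as enriched in neuronal IP over the stages and 1, src-2, as depleted. Of all genes tested, 41% were higher and 23.4% lower. The adhesion-molecule gene sax-7 was 1.40 higher (SE 0.14, adjusted p = 3.92e-11) and dig-1, which encodes a giant protein of the extracellular matrix, 0.55 higher (SE 0.12, adjusted p = 7.34e-05). From L1 to adult 3 were lower, rig-5 among them, and 1 higher, beside 29.6% and 23.8% of all genes tested. The higher 1 was ced-1, which encodes a receptor for engulfing cell corpses (0.70, SE 0.22, adjusted p = 0.00811). Of the others, src-2 fell by 1.25 (SE 0.25, adjusted p = 8.99e-05), dig-1 fell by 0.94 (SE 0.21, adjusted p = 0.000368) and sax-7 stood at -0.13 (SE 0.24, adjusted p = 0.665), whereas with scaling on neuron-enriched genes dig-1 was at 0.01 (adjusted p = 0.975) and sax-7 at 0.84 (adjusted p = 0.000488). In adult lin-14 gain-of-function libraries dig-1 fell by 0.49 (SE 0.17, adjusted p = 0.0386), the only 1 of 3 tested to pass, beside 10.5% of genes lower.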

How the data were processed

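The authors deposited raw counts per gene for 38 control libraries, aligned with Subread and counted with featureCounts per the submitters' processing notes; the sources used here do not name the build or the strandedness. The values of their deposited size-adjusted table were taken as a score, since 99.98% of control values were the raw counts of a neuronal gene set rescaled to sums of 3998798 to 4000500 (tolerance 0.51). The deposited DESeq2-normalized tables hold a signal and serve as an alternative only, since within each library their divisor of the size-adjusted values differed between genes. The other values the authors deposited are gene lengths.

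Control counts were tested with edgeR 4.0.16 (quasi-likelihood, TMM, filterByExpr, minimum count 10, 21040 genes, 38 libraries sharing 1 spread). CPM are TMM-scaled. The 26 mutant and control libraries were tested with limma 3.58.1 (trend, robust) in R 4.3.3, on log2 of the size-adjusted value over a median-ratio factor, with a pseudocount of 1, for 6148 genes with at least 10 in 3 libraries. All 9 members passed the first filter and 7 the second. DESeq2 1.42.0 was an alternative. The scripts were tested on simulated data.

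Same-numbered neuronal IP and input libraries deviated together at L1 (r of deviations 0.158 to 0.292), L4 (0.233 to 0.482) and adult (0.355 to 0.689), not in each pair at L2 (0.076 to 0.265). L1 lin-4 null and L1 control did so as well (0.195 to 0.440). The paired value is given where it changes a call of these comparisons. Neuronal IP libraries without an input of the same number (L2 3 and 5, L4 5 and 6, adult 6 and 7) add nothing to the paired estimates against input. All 9 members are named; for lists, the 3 largest changes past the threshold and rig-5, sax-7 and dig-1; for likeness, the 2 highest r. Members, lists and tests were chosen with earlier results of these data known. The IP-minus-input differences from L2 to L4 and L4 to adult, and the limma fit of the L1 to adult change, were added after the data were seen.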

Additional observations from a re-analysis of the deposited data

Results flagged for a closer look

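For 77 sets of member values per group with 4 to 10 libraries, a single library stood apart from the rest in 3, where chance gives about 1 in 20. The zig-2 level in L1 input library 2 was 0.612 CPM, with the next at 0.243 and the lowest at 0.180, from 22 counts in that library. The zig-10 level in adult neuronal IP library 4 was 26.8 CPM, with the next at 17.6 and the lowest at 10.6. The normalized zig-2 value in adult lin-14 gain-of-function library 5 was 164, with the next at 85.2 and the lowest at 57.5, and without it the log2 fold change against adult controls was -1.26 (adjusted p = 0.00634 in limma). The change from L1 to adult differed between neuronal IP and input for zig-1, by 1.56, and for zig-5, by 1.39, as tested by the interaction in edgeR.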

How the results depend on the processing

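Of 1444 member values under alternatives other than a left-out library, 1302 kept their side of the threshold, 50 lost the call, 79 gained one and 13 reversed. Of 2363 values with 1 library left out, 54 lost the call, 24 gained one and 0 reversed. The sign of values not called was not part of this: of 2218 such values under all alternatives, 200 had the other sign. Scaling on neuron-enriched genes, which by construction removes their mean difference between IP and input, gave IP over input at L1 of -0.24 for zig-1, -0.22 for zig-2 and -0.18 for zig-3, at L2 of -0.43 for zig-1, at L4 of -1.19 for zig-3 and over stages of -0.22 for zig-3. For L1 to adult in IP it gave 0.034 for zig-10, 1.07 for zig-3 and 0.19 for zig-4. There limma on the size-adjusted values divided by a median-ratio factor gave 0.20, 1.21 and 0.49, with 0.12 for zig-5. Other causes were not tested. Counts of members called moved by over 1.5 times as follows. With that neuronal scaling: IP against input at L2 5 (9), IP L2 to L4 2 (4), L4 to adult 0 (1), input L1 to L2 1 (0), where the value in parentheses is the reported count. With limma, IP L1 to adult 2 (7). DESeq2: IP L4 to adult 4, input L1 to L2 2. Groups alone: IP L2 to L4 1, the L1 to adult IP-minus-input difference 6 (2), adult lin-4 null 1 (0), adult lin-14 1 (2). Without the low filter: IP L4 to adult 0, that difference 6, adult lin-14 1. L4 libraries 4 to 6 alone: IP L2 to L4 1, L4 to adult 3, the L2 to L4 difference 2 (0); L4 libraries 1 to 3 alone: L4 to adult 2; adult libraries 1 to 3 alone: L4 to adult 3. Adult control libraries 4 to 7 alone: lin-4 null 1, lin-14 0. A pseudocount of 0.5: lin-14 1. Deposited normalized values: lin-4 null 1; size-adjusted values as deposited: lin-4 null 2, and its difference from control over L1 to adult 1. With the replicate block the differences had 5, 3 (L2 to L4: zig-3, -1.73, zig-6, 2.13, and zig-7, 1.32, although numbers did not pair L2 libraries) and 1 (L4 to adult: zig-1, 1.67) members called, and adult lin-4 null 1 and adult lin-28 1 (zig-3, with 660 of 6148 genes called), although numbers did not pair those mutants with controls; of the paired comparisons, no other call changed than those given with the results. With 1 library left out the counts ran from 6 to 8 for IP against input at L1, 6 to 9 at L2, 6 to 6 at L4, 7 to 8 in adults, 1 to 2 for IP L1 to L2, 1 to 4 for L2 to L4, 0 to 2 for L4 to adult, 4 to 7 for L1 to adult, 0 to 1 for input L1 to L2, 6 to 7 for L2 to L4, 2 to 3 for L4 to adult, 6 to 7 for L1 to adult, 1 to 3, 0 to 2 and 0 to 1 for the differences L1 to adult, L2 to L4 and L4 to adult, 1 to 2 for adult lin-14, 2 to 4 for lin-4 null L1 to adult and 0 to 1 for its difference from control. At L1, zig-2 and zig-6 rested on few reads, zig-2 on 4 to 25 counts, which limits their folds.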

Other observations

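The genes zig-9, zig-11 and zig-12 carry the name but are not among the 9. In neuronal IP over input, zig-9 was at -1.30 on the log2 scale (SE 0.21, adjusted p = 1.7e-06 in edgeR), zig-12 at -0.66 (SE 0.18, adjusted p = 0.00125) and zig-11 at 0.76 (SE 0.11, adjusted p = 1.14e-07). In neuronal IP zig-9 rose from L2 to L4 by 1.30 (SE 0.40, adjusted p = 0.0123) and fell by 1.03 from L4 to adult (SE 0.35, adjusted p = 0.0225). The gene zig-11, the 1 of the 3 in the size-adjusted table, had a normalized value of 2080 ± 693 (SD, n = 7) in adult controls, 1173 ± 338 (n = 4) in adult lin-4 null and 1320 ± 331 (n = 5) in adult lin-14 gain-of-function libraries. It was lower in both mutants, by log2 fold changes of -0.80 (SE 0.24, adjusted p = 0.0336 in limma) and -0.63 (SE 0.22, adjusted p = 0.0448), comparisons that share their controls.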
